A study of Arabidopsis thaliana with 54 samples.

Results

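The shift of the CIF2 response between 120 and 480 min was measured in RNA from whole roots of 5-day-old *Arabidopsis thaliana* seedlings. CIF2 is a small secreted peptide that binds the receptor kinase SGN3. The shift of a gene is the CIF2 effect at 480 min minus the CIF2 effect at 120 min, where an effect is the log2 ratio of its level with CIF2 to its level without peptide. It rests on 24 of the 54 libraries of the series, 6 in each of 4 arms (CIF2 and no peptide at 480 min, CIF2 and no peptide at 120 min), and each arm holds 3 libraries of *cif1 cif2* and 3 of wild type. The *cif1 cif2* plants carry the CRISPR-made alleles *cif1-2 cif2-2* and lack the endogenous peptides CIF1 and CIF2, wild type is Col-0, and *sgn3* plants carry the T-DNA allele *sgn3-3* and stand beside them as the receptor mutant, with 12 libraries at these times. All 3 genotypes share the Col background. Treated seedlings received 100 nM CIF2 in half-strength MS medium, and both arms were moved to fresh medium at time 0. Each mutant is represented by 1 line, and the libraries come in 3 batches, numbered in their titles, that hold 1 library of every group.

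The endodermis surrounds the vascular tissue of the root and seals its cell walls with the Casparian strip, a ring of lignin that blocks diffusion between cells. CIF peptides come from the stele and reach SGN3 on the outer face of the endodermis only where the strip has gaps, and receptor activation then leads to extra lignin and to suberin, a waxy polyester laid down as lamellae. Lignin is polymerised in the wall by peroxidases and laccases, and suberin is built from hydroxylated and reduced long-chain fatty acids that ABCG transporters export.

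The 3 *cif1 cif2* libraries titled as CIF2 480 min carry a treatment label that says no peptide, and they were taken as treated. With the titles, 486 genes (2.47% of those tested) were called for CIF2 at 480 min in *cif1 cif2* and 451 (2.29%) in wild type. *SGN3* (AT4G20140) was lowest in the receptor mutant, with 19.9 to 37.8 CPM (counts scaled to library size, median 26.8) in *sgn3*, against 108 to 347 (median 166) in *cif1 cif2* and 105 to 290.0 (median 177) in wild type, 12 libraries each, so the *sgn3* libraries did not overlap with the others. The transcripts of the CIF peptides were not analysed here. Depth was 21328819 to 37141287 reads counted on genes over the 24 libraries (median 28986615), and replicates of 1 group always differed by more than sampling noise. The labels do not say whether replicates were separate cultures of seedlings, so *P*-values measure the spread between these libraries.

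The CIF2 effect differed between the time points for a small share of genes. Of 19668 genes tested, 210 had a called shift (edgeR adjusted *P*-value no larger than 0.05, with a size of 1 or more on the log2 scale), which is 1.07% of all genes tested. For 147 of them (0.747%) the effect was higher at 480 min, and for 63 (0.32%) it was lower. On the adjusted *P*-value alone, 1026 shifts (5.22%) were higher and 630 (3.2%) lower. The median shift over all genes tested was -0.01. Of the gene lists, suberin monomer synthesis had 3 of 17 shifts called higher and none lower, and CASP-like proteins 4 of 29 higher and none lower. Other lists had calls in both directions, with 3 higher and 1 lower among 16 laccases, 3 higher and 1 lower among 57 class III peroxidases, 2 higher and 2 lower among 55 WRKY factors, and 1 higher and 2 lower among 7 suberin MYB factors. The sign of the shift was the same in all 6 sets of genotype and batch for 137 of the 147 and 58 of the 63. These sets are the libraries that called the genes, so the counts describe the genes and are no separate support. These are levels in whole roots, where more cells of a type and more RNA per cell cannot be told apart.

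**Figure D1:**
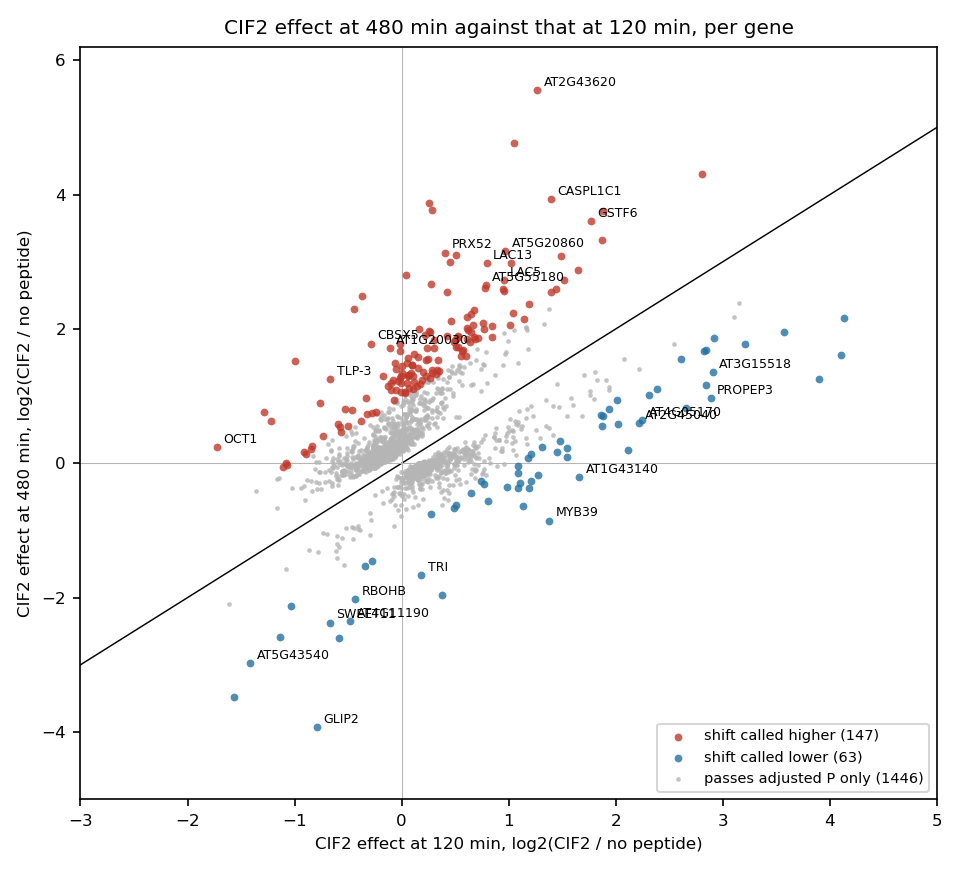
Each point is 1 gene with an adjusted *P*-value of at most 0.05 for the shift, with the CIF2 effect at 120 min on the x axis and that at 480 min on the y axis, both as log2 ratios of CIF2 to no peptide. The line marks equal effects, the 147 red genes lie above it and the 63 blue genes below it (1 blue gene lies beyond the axis), and names are given for the 24 genes with the largest shifts of the naming rule.

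The 210 genes fell into a few courses. The most frequent was a late rise: 108 of the 147 genes with a higher shift were called higher with CIF2 at 480 min but not at 120 min, with a median effect of 1.71 at 480 min against 0.26 at 120 min. Their upper quartile at 120 min was 0.56, so some had an effect by then that was under the threshold of 1. Over all genes tested, 2.07% were called higher and 0.33% lower at 480 min, and 1.53% higher and 0.239% lower at 120 min. A further 15 were called higher at both times, with medians of 2.87 at 480 min and 1.44 at 120 min. In 18 neither effect was called, and in 6 the effect was called lower at 120 min and not at 480 min (median 0.12 at 480 min and -1.16 at 120 min). Among the 63 genes with a lower shift, 28 were transient, being called higher at 120 min and not at 480 min (median 0.18 at 480 min and 1.51 at 120 min), and 14 were called higher at both times (median 1.64 at 480 min and 2.91 at 120 min). In 9 the effect was called lower at 480 min alone (median -2.03 at 480 min and -0.43 at 120 min), in 4 it was called lower at both times, and 8 were called at neither.

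The contrast of the shift holds no libraries taken at 30 min, though these entered the shared fit and its estimate of the spread. CIF2 raised 307 of all genes tested (1.56%) at 30 min. Of the 63 genes with a lower shift, 22 (34.9%) were called higher at 30 min, against 11 of the 147 (7.48%) with a higher shift, and none of the 210 was among the 0.0254% called lower. The medians of the 108 late genes over 30, 120 and 480 min were 0.08, 0.26 and 1.71. Those of the 28 transient genes were 0.56, 1.51 and 0.18 in the same order of times, and those of the 14 waning genes 1.86, 2.91 and 1.64.

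**Figure D2:**
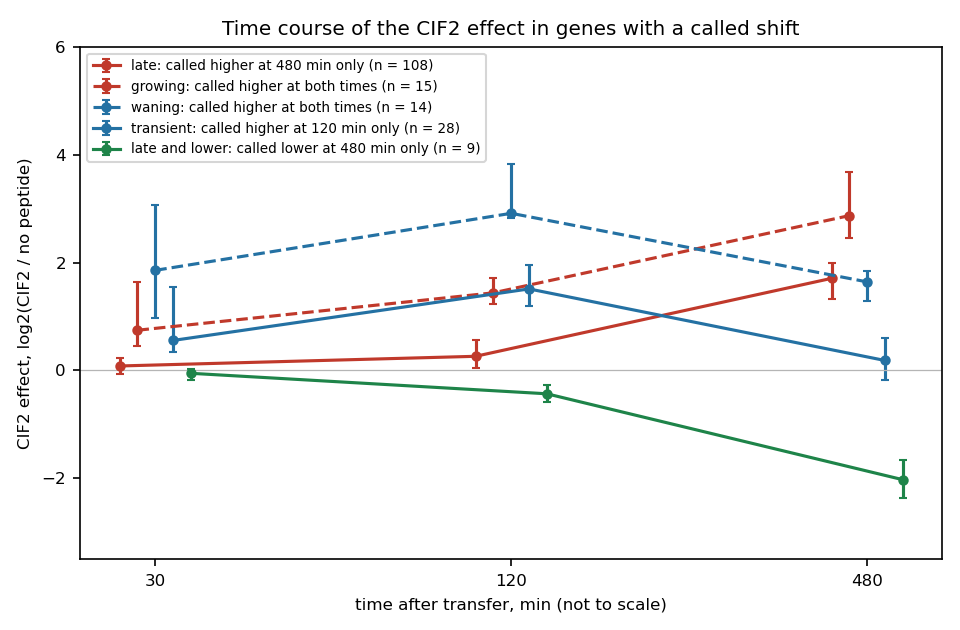
Median CIF2 effect (log2 ratio of CIF2 to no peptide, y axis) at 30, 120 and 480 min (x axis) in 5 classes of genes with a called shift, with bars from the lower to the upper quartile of genes. The late class of 108 genes has a median of 0.26 and an upper quartile of 0.56 at 120 min, and a median of 1.71 at 480 min. The transient class of 28 genes has its highest median, 1.51, at 120 min.

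A shift can come from either arm, since roots without peptide also changed between 120 and 480 min. With CIF2, 1262 genes (6.42%) were called between 480 and 120 min, and without peptide 995 genes (5.06%). Of the 147 genes with a higher shift, 120 were higher at 480 than at 120 min with CIF2, 16 did not pass the adjusted *P*-value and 11 were lower, while without peptide 35 were higher, 55 did not pass and 57 were lower. On that criterion 46.7% of all genes tested changed in either direction with CIF2 and 46.2% without peptide. Of the 63 genes with a lower shift, 54 were lower at 480 than at 120 min with CIF2 and 4 were higher, and without peptide 15 were lower and 24 higher. These counts describe the genes and are not independent of the shift, which is the difference of the 2 changes.

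Enzymes of lignin polymerisation were found in both directions. Laccases oxidise monolignols in the wall, and 3 of 16 tested had a called higher shift and 1 a called lower shift, with a list median of 0.08. *LAC13* (AT5G07130) had 207 to 317 CPM (median 239) in CIF2 roots and 21.6 to 43.7 CPM (median 32.5) in roots without peptide at 480 min, and 23.4 to 35.5 CPM (median 31.8) with CIF2 and 16.1 to 18.7 CPM (median 16.98) without at 120 min. The CIF2 libraries lay above those without peptide at both times, with an effect of 2.98 at 480 min and 0.79 at 120 min. Its shift was 2.19 ± 0.13 (SE, edgeR adjusted *P* = 1.32e-15). *LAC5* (AT2G40370) had 232 to 349 CPM (median 286) with CIF2 and 33.7 to 55.3 CPM (median 41.6) without at 480 min, against 71.6 to 96.3 CPM (median 83.3) with CIF2 and 35.7 to 48.3 CPM (median 44.1) without at 120 min, and a shift of 1.78 ± 0.12 (SE, edgeR adjusted *P* = 5.04e-15). The CIF2 and no-peptide libraries of *LAC5* did not overlap at either time. *LAC12* was already higher at 120 min, with an effect of 4.31 at 480 min and 2.81 at 120 min, and its shift of 1.505 ± 0.30 (SE, edgeR adjusted *P* = 0.000546) was 0.65 without batch 3 (adjusted *P* = 0.14). *LAC16* went the other way, with a shift of -1.35 ± 0.13 (SE, edgeR adjusted *P* = 6.39e-10). It had 16.6 to 22.7 CPM (median 20.01) with CIF2 and 18.7 to 36.3 CPM (median 24.5) without at 480 min, and 12.2 to 23.99 CPM (median 17.5) with CIF2 and 7.81 to 10.4 CPM (median 8.84) without at 120 min. The change of *LAC16* between 480 and 120 min was 0.16 with CIF2, which did not pass, and 1.503 without peptide.

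Class III peroxidases are secreted enzymes that use hydrogen peroxide to oxidise phenolics. Of 57 tested, 3 had a called higher shift and 1 a called lower shift, with a list median of 0.09. *PRX52* (AT5G05340) had 33.5 to 69.5 CPM (median 56.3) with CIF2 and 1.596 to 12.4 CPM (median 6.94) without at 480 min, and 2.47 to 8.72 CPM (median 5.24) with CIF2 and 0.913 to 7.54 CPM (median 4.12) without at 120 min. At 480 min every CIF2 library was above every library without peptide, and at 120 min the arms overlapped. The shift was 2.73 ± 0.60 (SE, edgeR adjusted *P* = 0.00164), and it did not pass without batch 3 (2.17, adjusted *P* = 0.0699). AT2G35380 had a shift of 1.53 ± 0.14 (SE, edgeR adjusted *P* = 6.32e-11) and AT1G68850 of 1.22 ± 0.12 (SE, edgeR adjusted *P* = 1.57e-10), and both have products annotated as peroxidases. AT3G32980, also a peroxidase, had 574 to 687 CPM (median 609) with CIF2 and 1584 to 1923 CPM (median 1798) without at 480 min, and 1100.1 to 1474 CPM (median 1341) with CIF2 and 1403 to 2048 CPM (median 1669.5) without at 120 min. Its effect was -1.53 at 480 min and -0.35 at 120 min, a shift of -1.19 ± 0.08 (SE, edgeR adjusted *P* = 1.04e-14).

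Upstream of the polymerisation, 1 of 18 genes of monolignol synthesis had a called shift, and the list median was 0.09. *PAL4*, a phenylalanine ammonia-lyase that opens the phenylpropanoid pathway, had a shift of 1.004 ± 0.11 (SE, edgeR adjusted *P* = 6.47e-09), with an effect of 1.15 at 480 min and 0.15 at 120 min. *PAL1* (shift -0.097) and *PAL2* (shift -0.14) did not pass the test. AT1G80820, annotated as a cinnamoyl-CoA reductase, was higher with CIF2 at both times (1.49 at 480 min and 1.09 at 120 min), with a shift of 0.398 (adjusted *P* = 0.0473) that did not pass with batch 1 or batch 3 left out or without the batch block (adjusted *P* = 0.347, 0.234 and 0.126). Of the 7 MYB factors listed for lignin none had a called shift, against 1.07% of all genes tested. *MYB15*, an activator of stress lignin, had an effect of 3.96 at 480 min and 4.09 at 120 min.

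**Figure D3:**
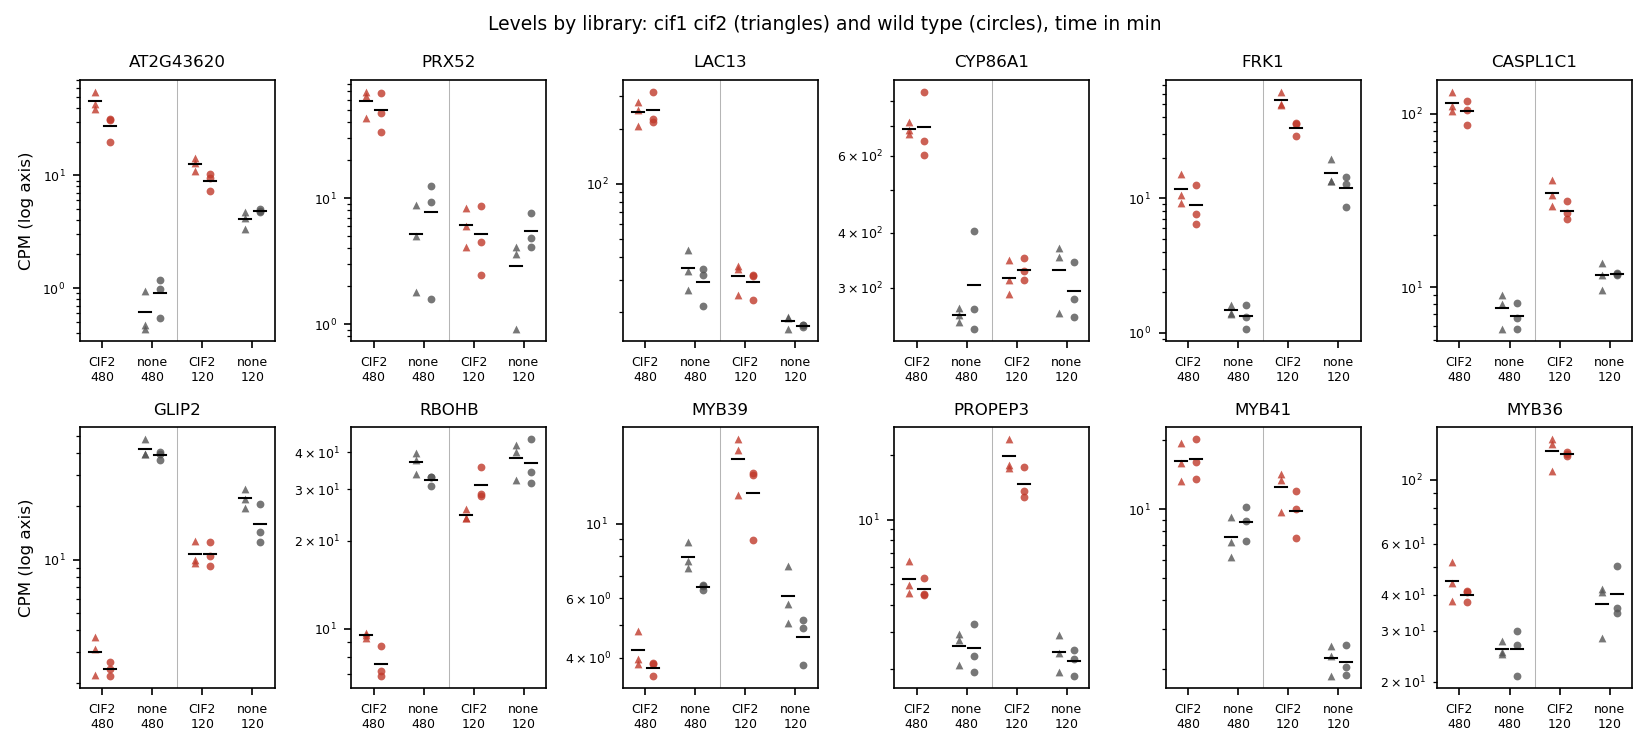
CPM (y axis, log scale) in every library of 12 genes, in the arms CIF2 480 min, no peptide 480 min, CIF2 120 min and no peptide 120 min from left to right, with triangles for *cif1 cif2*, circles for wild type and a line at the mean of 3. *LAC13* and *PRX52* are highest in the CIF2 arm at 480 min, *PROPEP3* and *MYB36* are highest in the CIF2 arm at 120 min, and *MYB41* rises without peptide as well.

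Several suberin genes had higher shifts, although few passed the fold threshold. Of 17 genes of suberin monomer synthesis, 3 had a called higher shift and none a lower one, 9 were higher and none lower on the adjusted *P*-value alone (5.22% of all genes tested were higher on that criterion), and the list median was 0.55 against -0.01 for all genes. *CYP86A1* (AT5G58860), the fatty acid hydroxylase that makes root suberin monomers, had 600.3 to 837 CPM (median 678) with CIF2 and 242 to 405 CPM (median 265) without at 480 min, and 291 to 350.2 CPM (median 320.2) with CIF2 and 258 to 370.1 CPM (median 314) without at 120 min. Its arms separated at 480 min and overlapped at 120 min, for a shift of 1.25 ± 0.12 (SE, edgeR adjusted *P* = 6.35e-10). *LACS2*, an acyl-CoA synthetase, had 431 to 636 CPM (median 504) with CIF2 and 101 to 169 CPM (median 118) without at 480 min, against 149.99 to 194 CPM (median 178) with CIF2 and 92.02 to 123 CPM (median 113) without at 120 min, a shift of 1.39 ± 0.13 (SE, edgeR adjusted *P* = 5.75e-11). *FAR4*, a reductase that makes fatty alcohols, had 172 to 251 CPM (median 211) with CIF2 and 43.5 to 67.2 CPM (median 51.6) without at 480 min, against 64.1 to 80.9 CPM (median 73.9) with CIF2 and 41.7 to 51.004 CPM (median 45.97) without at 120 min, and its shift was 1.31 ± 0.12 (SE, edgeR adjusted *P* = 8.29e-11). *GPAT5*, the acyltransferase that joins suberin acids to glycerol, passed on the adjusted *P*-value with a shift of 0.94 ± 0.11 (SE, edgeR adjusted *P* = 5.97e-08). The shifts of *CYP86B1* (0.27, adjusted *P* = 0.106) and of the feruloyl transferase *ASFT* (-0.31, adjusted *P* = 0.0611) did not pass: CIF2 roots had more of both at each time, with effects at 480 min of 1.36 and 0.74.

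The list of suberin export and polymerization, which holds transporters that carry suberin precursors out of the cell, had a median of 0.77 over 5 genes. On the adjusted *P*-value 4 were higher and 1 lower (-0.93), and 1 was called. The called transporter was *ABCG20*, with 213 to 314 CPM (median 246) with CIF2 and 60.6 to 102 CPM (median 82.2) without at 480 min, and 68.2 to 95.9 CPM (median 87.6) with CIF2 and 50.3 to 61.6 CPM (median 56.9) without at 120 min. Its shift was 1.0003 ± 0.11 (SE, edgeR adjusted *P* = 6.13e-09), at the edge of the threshold, and that of *ABCG6* was 0.99 ± 0.14 (SE, edgeR adjusted *P* = 1.05e-06), just under it. *ABCG2* had a shift of 0.77 ± 0.12 (SE, edgeR adjusted *P* = 4.32e-06). Further genes of fatty acid elongation and modification, named after their values were seen, had called higher shifts, namely *CYP86A2* (1.69), the elongation enzyme *KCS17* (1.68), *LACS3* (1.15) and *WRI4* (1.06), a regulator of wax synthesis.

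The MYB factors known to regulate suberin split in direction. Of 7 tested (median -0.20), *MYB93* had a called higher shift (1.04 ± 0.13 SE, edgeR adjusted *P* = 2.32e-07), and *MYB39* and *MYB41* called lower ones. *MYB39* (AT4G17785) had 3.53 to 4.81 CPM (median 3.85) with CIF2 and 6.35 to 8.81 CPM (median 6.98) without at 480 min, against 8.91 to 17.8 CPM (median 14.05) with CIF2 and 3.802 to 7.48 CPM (median 5.13) without at 120 min. Every CIF2 library was below every library without peptide at 480 min and above every such library at 120 min. Over 30, 120 and 480 min its effects were 0.57, 1.38 and -0.85, and the shift was -2.23 ± 0.13 (SE, edgeR adjusted *P* = 1.24e-16). *MYB41* had 13.3 to 20.2 CPM (median 15.9) with CIF2 and 6.17 to 10.3 CPM (median 8.06) without at 480 min, and 7.48 to 14.3 CPM (median 11.001) with CIF2 and 1.86 to 2.55 CPM (median 2.17) without at 120 min. CIF2 roots thus had more *MYB41* at both times, and its shift of -1.299 ± 0.23 (SE, edgeR adjusted *P* = 8.38e-05) stands beside a rise over time of 0.57 with CIF2 and 1.87 without peptide on the log2 scale. *MYB53* passed on the adjusted *P*-value (0.87 ± 0.14 SE, edgeR adjusted *P* = 2.92e-05) and *MYB92* did not (-0.1998).

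The genes that build the Casparian strip had no called shift among 15 tested, with a median of -0.25. Called shifts were 1.07% of all genes tested, so 0 calls do not set this list apart. On the adjusted *P*-value 1 of the 15 was higher and 6 lower, against 5.22% and 3.2% of all genes tested. *MYB36*, the regulator that switches on the strip genes, came closest to the threshold. It had 37.8 to 52.03 CPM (median 40.9) with CIF2 and 20.9 to 30.04 CPM (median 26.1) without at 480 min, and 107 to 138 CPM (median 123) with CIF2 and 28.4 to 50.2 CPM (median 38.5) without at 120 min, with a shift of -0.98 ± 0.14 (SE, edgeR adjusted *P* = 1.78e-06). CIF2 libraries lay above those without peptide at both times, by less at 480 min. *CASP4* had a shift of -0.77 (adjusted *P* = 0.00264), which was -1.42 in *cif1 cif2* and -0.12 in wild type, and the difference between the genotypes did not pass (adjusted *P* = 0.686). The shift of *CASP4* did not pass in the fit of the 24 libraries alone (-0.57, adjusted *P* = 0.66), without batch 3 (-0.71, adjusted *P* = 0.0881) or without the batch block (-0.77, adjusted *P* = 0.0754). *CASP1* (shift 0.42), *CASP2* (-0.32), *CASP5* (-0.45), *ESB1* (-0.12) and *SGN3* (-0.32) had small shifts, of which that of *CASP1* passed (adjusted *P* = 0.0181), though not without batch 2, without batch 3, without the batch block or in the 24 libraries alone (adjusted *P* of 0.0723 to 0.134). Summed over 9 endodermal marker genes, levels were 995 to 1432 CPM (median 1159) with CIF2 and 647 to 828 (median 726) without at 480 min, and 1201 to 1885 (median 1626) with CIF2 and 610.1 to 1163 (median 846) without at 120 min. CIF2 libraries had higher sums than those without peptide at both times. The sums hide a member that went the other way, *CASP5*, with effects of -1.29 at 480 min and -0.84 at 120 min. None of the 9 genes, all of them also in the Casparian strip list, had a called shift. The part of the difference in summed levels in the shifts of other genes was not tested. Of the family of CASP-like proteins, which resemble the CASPs, 4 of 29 tested had a called higher shift and none a lower one, with a median of 0.03. The largest of the 4 was that of *CASPL1C1* (AT4G03540), with 86.1 to 134 CPM (median 108) with CIF2 and 5.73 to 9.04 CPM (median 7.34) without at 480 min, 24.8 to 41.5 CPM (median 30.6) with CIF2 and 9.63 to 13.9 CPM (median 11.8) without at 120 min, and a shift of 2.54 ± 0.19 (SE, edgeR adjusted *P* = 2.99e-13). The other 3 were *CASPL1B2* (1.46), *CASPL1D2* (1.06, though not passing in wild type alone, adjusted *P* = 0.0541) and *CASPL1C2* (1.02). The change of *CASPL1D2* between 480 and 120 min was 0.11 with CIF2, which did not pass, and -0.95 without peptide.

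**Figure D4:**
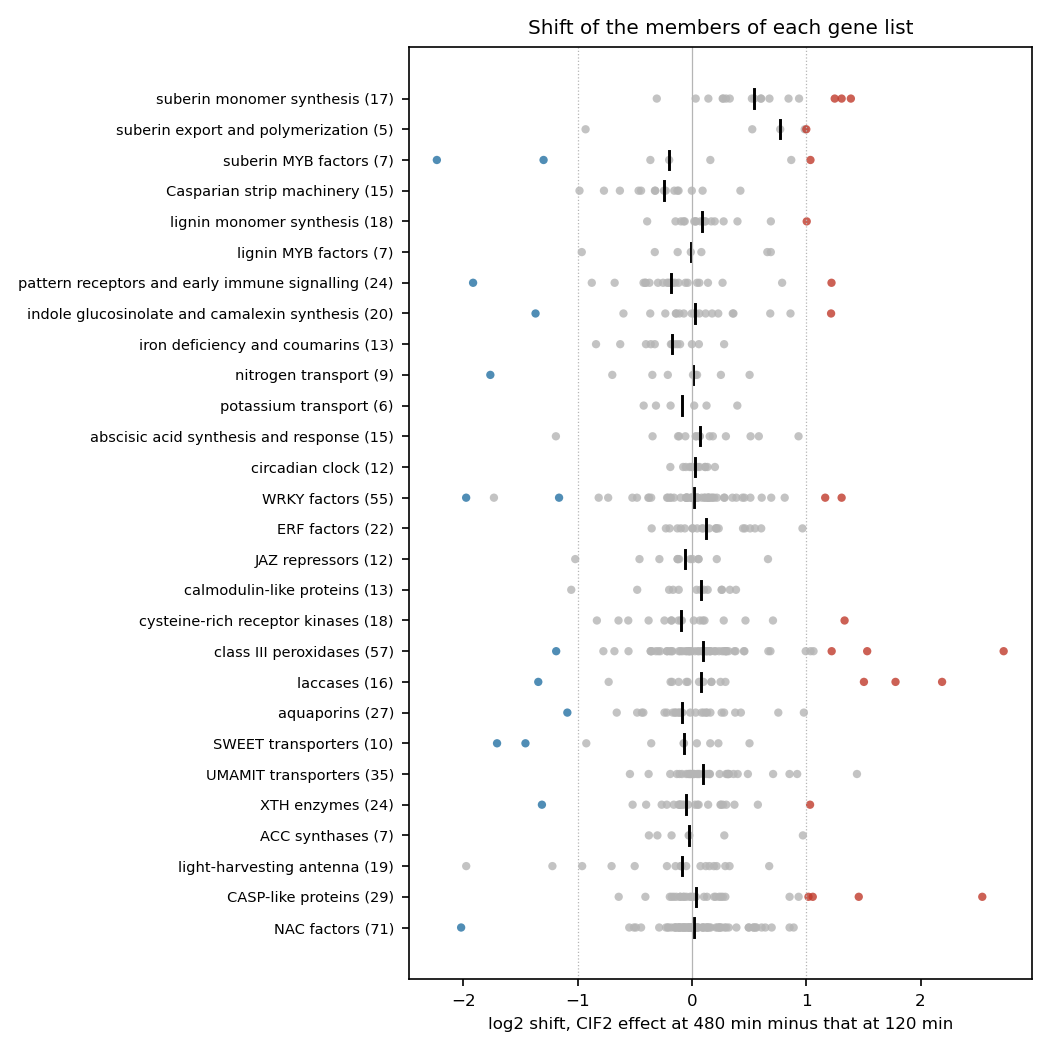
Each row is 1 gene list with the number of members tested, each dot the log2 shift of 1 member (x axis, CIF2 effect at 480 min minus that at 120 min), red or blue where the shift was called, and the black bar is the median of the list. The medians of suberin monomer synthesis (0.55) and of suberin export and polymerization (0.77) lie right of 0. That of the suberin MYB factors (-0.20) lies left of 0, and most other lists have medians close to 0.

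The largest higher shift among genes at 5 CPM or more was that of AT2G43620, a chitinase family gene. It had 19.98 to 55.3 CPM (median 35.3) with CIF2 and 0.432 to 1.17 CPM (median 0.746) without at 480 min, and 7.26 to 14.2 CPM (median 10.6) with CIF2 and 3.38 to 5.0001 CPM (median 4.73) without at 120 min, a shift of 4.29 ± 0.28 (SE, edgeR adjusted *P* = 5.03e-15). Its level was higher at 480 than at 120 min with CIF2 (1.73) and lower without (-2.56). A fall without peptide was also found in *CBSX5* (shift 2.07), a protein with CBS domains, and in the thaumatin-like *TLP-3* (1.92), where the change with CIF2 did not pass (adjusted *P* = 0.0849 and 0.207) and the change without peptide was -1.799 and -1.72 on the log2 scale. In AT1G20030, another thaumatin-like gene, the change was in the CIF2 arm, with 23.1 to 35.6 CPM (median 30.95) with CIF2 and 7.91 to 10.7 CPM (median 9.04) without at 480 min, 7.56 to 10.6 CPM (median 9.16) with CIF2 and 8.16 to 11.4 CPM (median 10.1) without at 120 min, and a shift of 1.83 ± 0.14 (SE, edgeR adjusted *P* = 6.00e-13). *OCT1*, a carnitine transporter, was lower with CIF2 at 120 min (-1.72) and its effect at 480 min did not pass (0.24, adjusted *P* = 0.679), and its shift of 1.96 had an adjusted *P*-value of 0.00153, or 0.0552 without the batch block.

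Genes annotated with enzymes of wall carbohydrates also had called higher shifts. AT5G20860, whose product is annotated as a pectin methylesterase inhibitor superfamily protein, had 82.1 to 136 CPM (median 104) with CIF2 and 8.23 to 19.1 CPM (median 10.8) without at 480 min, and 15.3 to 21.5 CPM (median 18.9) with CIF2 and 9.05 to 10.1 CPM (median 9.38) without at 120 min, for a shift of 2.19 ± 0.15 (SE, edgeR adjusted *P* = 2.68e-14). AT5G55180, of glycosyl hydrolase family 17, had a shift of 1.87 ± 0.11 (SE, edgeR adjusted *P* = 3.67e-16). Chosen after their values were seen, *QRT1* (1.25), *QRT2* (1.42) and *QRT3* (1.42) also had called higher shifts. These pectin-degrading enzymes are known from the separation of pollen tetrads, and in roots *QRT2* had 40.5 to 58.3 CPM (median 47.5) with CIF2 and 11.5 to 17.3 CPM (median 14.4) without at 480 min, and 18.998 to 23.9 CPM (median 20.2) with CIF2 and 13.9 to 19.5 CPM (median 16.8) without at 120 min. The hydroxyproline-rich *PELPK1* (1.11) and *PELPK2* (1.34), the GDSL lipases AT2G23540 (1.305), AT3G50400 (1.61) and AT1G74460 (1.03), and the dirigent-like AT2G21100 (1.57) were named in the same way. Of 24 XTH enzymes, which cut and rejoin xyloglucan, *XTH24* had a called higher shift (1.03 ± 0.19 SE, edgeR adjusted *P* = 0.000206) and *XTH20* a called lower one (-1.31 ± 0.14 SE, edgeR adjusted *P* = 5.05e-09), with a list median of -0.05. The shift of *XTH24* did not pass in wild type alone (0.86, adjusted *P* = 0.0948). Its level was lower at 480 than at 120 min with CIF2 (-0.69) and without (-1.73). *XTH20* had 52.4 to 82.3 CPM (median 66.04) with CIF2 and 39.9 to 60.4 CPM (median 41.9) without at 480 min, and 44.8 to 92.5 CPM (median 68.3) with CIF2 and 14.997 to 23.1 CPM (median 17.7) without at 120 min, a change over time of 0.02 with CIF2, which did not pass, and of 1.34 without peptide.

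Glutathione transferases conjugate glutathione to reactive compounds. *GSTF6* (AT1G02930) had 261 to 474 CPM (median 324) with CIF2 and 15.5 to 43.02 CPM (median 28.9) without at 480 min, and 197 to 339 CPM (median 244) with CIF2 and 52.8 to 96.8 CPM (median 80.7) without at 120 min. CIF2 libraries exceeded those without peptide at both times, and the shift was 1.83 ± 0.25 (SE, edgeR adjusted *P* = 9.32e-07). The change of *GSTF6* between 480 and 120 min was 0.40 with CIF2, which did not pass (edgeR adjusted *P* = 0.0512), and -1.43 without peptide. Its neighbour *GSTF7* (1.599) and *GSTF2* (1.65), named after their values were seen, moved in the same direction. *GSTF6* and *GSTF7* are near-identical paralogs, and how well the counting told their reads apart was not examined.

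Genes of stress and immune signalling were called in both directions. Over 24 pattern receptors and early immune genes, 1 shift was called higher and 1 lower, with a median of -0.18. On the adjusted *P*-value 2 of the 24 were higher and 6 lower, against 5.22% and 3.2% of all genes tested. *PROPEP3*, the precursor of a danger-signal peptide, had 4.42 to 6.42 CPM (median 4.73) with CIF2 and 1.95 to 3.26 CPM (median 2.52) without at 480 min, and 12.8 to 23.8 CPM (median 17.5) with CIF2 and 1.85 to 2.88 CPM (median 2.31) without at 120 min, a shift of -1.92 ± 0.19 (SE, edgeR adjusted *P* = 8.92e-10). CIF2 libraries stood above those without peptide at both times. Of 55 WRKY factors, 2 shifts were called higher (*WRKY56*, 1.31, and *WRKY24*, 1.17) and 2 lower (*WRKY30*, -1.98, and *WRKY53*, -1.16), with a median of 0.02. *WRKY53*, a regulator of senescence and defence, had 7.3001 to 9.98 CPM (median 8.21) with CIF2 and 2.06 to 4.11 CPM (median 2.45) without at 480 min, and 16.5 to 30.5 CPM (median 25.5) with CIF2 and 3.103 to 3.85 CPM (median 3.15) without at 120 min, and its shift did not pass in wild type alone (adjusted *P* = 0.0785). *WRKY30* had effects of 2.16 at 480 min and 4.14 at 120 min, and its shift did not pass without batch 1 (adjusted *P* = 0.0968), without batch 3 (adjusted *P* = 0.174) or in wild type alone (adjusted *P* = 0.396). AT3G15518, which encodes an uncharacterised protein, had effects of 1.36 at 480 min and 2.91 at 120 min and a shift of -1.55 ± 0.18 (SE, edgeR adjusted *P* = 2.00e-08). The bHLH factor AT4G05170 had effects of 0.64 and 2.25 at these times and a shift of -1.61 ± 0.13 (SE, edgeR adjusted *P* = 7.79e-13). The matrixin family gene AT2G45040, of a class of proteases, had effects of 0.598 and 2.22 and a shift of -1.62 ± 0.14 (SE, edgeR adjusted *P* = 8.03e-12). All 3 were higher with CIF2 at both times and less so at 480 min.

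The flagellin-response kinase gene *FRK1* shows how a higher shift can go with a falling level. It had 6.42 to 15.1 CPM (median 9.96) with CIF2 and 1.06 to 1.62 CPM (median 1.39) without at 480 min, and 28.9 to 61.9 CPM (median 42.9) with CIF2 and 8.62 to 19.7 CPM (median 13.5) without at 120 min. Both arms were lower at 480 min, with a change of -2.06 with CIF2 and -3.28 without on the log2 scale, and the shift was 1.22 ± 0.22 (SE, edgeR adjusted *P* = 0.000137). *IGMT4*, an indole glucosinolate methyltransferase with close paralogs, had the same form (1.22), and its shift did not pass without batch 1, without batch 2 or in wild type alone (adjusted *P* of 0.0761 to 0.149). *FMO1*, which makes an immune signal from pipecolic acid and was named after its values were seen, had effects of 1.87, 0.51 and 3.11 over 30, 120 and 480 min. In indole glucosinolate and camalexin synthesis (20 tested, 1 called higher and 1 lower), *MYB122* had a shift of -1.37 ± 0.17 (SE, edgeR adjusted *P* = 5.73e-08), and *MYB51* (-0.14), *CYP81F2* (-0.0021), *CYP71A12* (0.86) and *CYP71B15* (0.06) did not pass. The flagellin receptor gene *FLS2* had a shift of -0.68 that did not pass either (adjusted *P* = 0.0754). *CRK4* (1.34) was the called member of 18 cysteine-rich receptor kinases (median -0.09), at 0.525 to 2.53 CPM with CIF2 at 480 min, and it did not pass without batch 1 (adjusted *P* = 0.141) or in wild type alone (adjusted *P* = 0.104).

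Some genes with a lower shift had a lower level with CIF2 at 480 min. *GLIP2* (AT1G53940), a secreted lipase of defence, had 2.19 to 3.64 CPM (median 2.54) with CIF2 and 36.4 to 47.96 CPM (median 39.5) without at 480 min, and 9.17 to 12.8 CPM (median 10.2) with CIF2 and 12.5 to 24.96 CPM (median 20.2) without at 120 min. The arms of *GLIP2* separated at 480 min and overlapped at 120 min, and the shift was -3.13 ± 0.18 (SE, edgeR adjusted *P* = 1.24e-16). *RBOHB*, an NADPH oxidase gene, had 6.88 to 9.65 CPM (median 9.04) with CIF2 and 30.8 to 39.7 CPM (median 33.4) without at 480 min, and 23.9 to 35.8 CPM (median 27.01) with CIF2 and 31.5 to 44.4 CPM (median 37.2) without at 120 min, a shift of -1.59 ± 0.13 (SE, edgeR adjusted *P* = 8.03e-12). The dirigent-like AT4G11190 had 56.8 to 109 CPM (median 61.6) with CIF2 and 299 to 468 CPM (median 339.6) without at 480 min, and 97.1 to 202 CPM (median 123) with CIF2 and 145 to 293 CPM (median 182) without at 120 min. The 2 arms of AT4G11190 were apart at 480 min and overlapped at 120 min, and its shift was -1.87 ± 0.14 (SE, edgeR adjusted *P* = 4.24e-13). The tropinone reductase family gene *TRI* (-1.85), the zinc finger gene AT5G43540 (-1.56) and the malate channel gene *ALMT1* (-1.17, named after its values were seen) were likewise lower with CIF2 at 480 min. The cullin family gene AT1G43140 (-1.86) was higher with CIF2 at 120 min (1.66) and did not differ by the test at 480 min (-0.203).

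Of 10 SWEET sugar transporters 2 had a called lower shift, with a list median of -0.07. *SWEET11*, a sucrose exporter, had 0.742 to 2.68 CPM (median 1.44) with CIF2 and 4.43 to 9.98 CPM (median 8.89) without at 480 min, and 5.38 to 12.4 CPM (median 9.55) with CIF2 and 9.17 to 17.4 CPM (median 15.96) without at 120 min, with a shift of -1.71 ± 0.48 (SE, edgeR adjusted *P* = 0.0168). The shift of *SWEET11* did not pass without batch 2 or without batch 3 (adjusted *P* = 0.0688 and 0.152), and that of *SWEET3* (-1.46, adjusted *P* = 0.0196) did not pass without any 1 of the 3 batches (adjusted *P* of 0.0545 to 0.216). Of 27 aquaporins (median -0.08), *TIP2;3* was the called one (-1.09 ± 0.21 SE, edgeR adjusted *P* = 0.000286), and it was lower with CIF2 at 480 min (-2.12) and at 120 min (-1.03). In wild type alone the shift of *TIP2;3* did not pass (-0.89, adjusted *P* = 0.124), nor did those of *SWEET11* (adjusted *P* = 0.3) and *SWEET3* (adjusted *P* = 0.433). The called one of 9 nitrogen transport genes, the nitrate transporter gene *NRT2.1*, had 1.05 to 2.997 CPM (median 1.65) with CIF2 and 1.24 to 4.97 CPM (median 2.66) without at 480 min, and 2.47 to 7.31 CPM (median 4.005) with CIF2 and 0.803 to 4.66 CPM (median 1.28) without at 120 min, a shift of -1.76 ± 0.41 (SE, edgeR adjusted *P* = 0.00279), which did not pass in wild type alone (adjusted *P* = 0.136), and its libraries with and without CIF2 overlapped at both times. The ammonium transporter *AMT1;2* had effects of -0.94 at 480 min and -0.98 at 120 min, and a shift of 0.04 ± 0.13 (SE, edgeR adjusted *P* = 0.899) that did not pass. The iron transporter *IRT1* had a shift of 0.06 that did not pass either.

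Only 1.07% of all genes tested had a called shift, so 0 calls do not set a small list apart. Several lists had no called shift. These were iron and coumarins (13 tested, median -0.18), potassium transport (6, median -0.08), abscisic acid (15, median 0.07), ERF factors (22, median 0.12), JAZ repressors (12, median -0.06), calmodulin-like proteins (13, median 0.08), UMAMIT transporters (35, median 0.10), ACC synthases (7, median -0.03), light-harvesting proteins (19, median -0.09) and the circadian clock (12, median 0.03). Among clock genes, *CCA1* had a shift of -0.02, *LHY* of -0.19 and *TOC1* of 0.004, none of which passed. Of 71 NAC factors (median 0.02), *LOV1* was called (-2.02 ± 0.35 SE, edgeR adjusted *P* = 6.98e-05), at 0.162 to 0.244 CPM with CIF2 at 480 min. Markers of tissues had no called shift in 8 lists, and 6 of these had medians of -0.18 to 0.09. These 6 were small: root hair and epidermis (8 tested), cortex (1), xylem (6), phloem and stele (4), root cap (3) and dividing cells (4). The cortex value is thus that of 1 gene. The 6 shoot markers had a median shift of -0.61 at summed levels of 19.8 to 29.6 CPM with CIF2 and 30.3 to 46.8 without at 480 min, and 21.3 to 30.6 with CIF2 and 32.2 to 54.7 without at 120 min, and their part in the shifts was not tested.

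Promoters of these genes were compared over the 250 bases before the annotated gene start, read from RefSeq TAIR10.1. The W-box core TTGAC, which WRKY factors bind, was searched on both strands. It was present in 26 of 42 promoters (61.9%) of genes with a lower shift that were called higher at 120 min, in 66 of 123 (53.7%) of genes with a higher shift called higher at 480 min, in 7 of 21 (33.3%) of the other genes with a lower shift, and in 45.6% of all 19658 promoters of tested genes. At least 2 cores stood in 18 of the 42 (42.9%), in 25 of the 123 (20.3%) and in 14.5% of all. The ABRE core ACGTG was in 28.6% of promoters of the 147 genes with a higher shift, in 25.4% of the 63 with a lower one and in 24.01% of all. The GCC box GCCGCC was in 1.36% of the 147, 1.59% of the 63 and 1.96% of all, and the CGCG box core CGCGT was in 5.44% of the 147, 14.3% of the 63 and 7.51% of all. AC element II (ACCAACC) was in 4.76% of the 147, 9.52% of the 63 and 2.80% of all, AC element I (ACCTACC) in 2.04%, 1.59% and 1.23%, and AC element III (ACCTAAC) in 4.08%, 4.76% and 2.42%. The GCC box and the AC elements rest on 1 to 7 promoters each.

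The promoters of 6 genes are shown, from transient or waning genes (*PROPEP3*, *WRKY30*, AT3G15518, *MYB39*) and from genes with a higher shift (*LAC13*, *CASPL1C1*), to show that genes with shifts in the same direction can hold several W-box cores or none. Capitals mark W-box cores on either strand (TTGAC, or GTCAA for the other strand), and each sequence runs 5′ to 3′ along the gene's strand.
PROPEP3, chr5:25939312-25939561, + strand: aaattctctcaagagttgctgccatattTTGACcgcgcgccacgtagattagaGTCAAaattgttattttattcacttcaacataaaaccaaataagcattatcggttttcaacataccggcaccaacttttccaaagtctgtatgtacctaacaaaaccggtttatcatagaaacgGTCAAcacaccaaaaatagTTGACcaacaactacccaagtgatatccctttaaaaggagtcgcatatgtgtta
WRKY30, chr5:8154711-8154960, - strand: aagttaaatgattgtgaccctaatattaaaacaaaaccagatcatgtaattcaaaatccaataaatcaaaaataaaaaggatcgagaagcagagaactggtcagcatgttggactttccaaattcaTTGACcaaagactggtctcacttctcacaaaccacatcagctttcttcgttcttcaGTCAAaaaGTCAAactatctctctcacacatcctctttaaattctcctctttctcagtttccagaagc
AT3G15518, chr3:5248862-5249111, + strand: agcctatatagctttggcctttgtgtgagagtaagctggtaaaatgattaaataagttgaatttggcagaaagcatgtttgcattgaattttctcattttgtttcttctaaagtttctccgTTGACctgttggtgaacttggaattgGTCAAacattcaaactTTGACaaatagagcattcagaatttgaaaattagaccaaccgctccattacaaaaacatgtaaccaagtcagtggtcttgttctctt
MYB39, chr4:9883433-9883682, - strand: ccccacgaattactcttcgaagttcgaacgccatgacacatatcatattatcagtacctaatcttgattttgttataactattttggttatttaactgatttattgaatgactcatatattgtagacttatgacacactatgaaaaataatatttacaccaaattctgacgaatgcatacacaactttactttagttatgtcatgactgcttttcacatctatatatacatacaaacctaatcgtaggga
LAC13, chr5:2209467-2209716, + strand: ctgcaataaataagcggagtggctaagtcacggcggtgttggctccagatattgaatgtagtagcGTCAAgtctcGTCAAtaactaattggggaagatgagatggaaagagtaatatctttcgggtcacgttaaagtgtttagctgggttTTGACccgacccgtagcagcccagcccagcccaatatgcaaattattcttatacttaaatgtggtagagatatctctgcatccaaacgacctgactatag
CASPL1C1, chr4:1569687-1569936, + strand: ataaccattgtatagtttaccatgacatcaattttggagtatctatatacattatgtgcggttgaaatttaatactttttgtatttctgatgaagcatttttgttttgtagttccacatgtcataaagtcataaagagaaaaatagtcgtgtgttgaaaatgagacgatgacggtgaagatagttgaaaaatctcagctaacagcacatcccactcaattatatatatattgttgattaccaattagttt
A match describes these letters only. *PROPEP3* holds 4 cores, *WRKY30*, AT3G15518 and *LAC13* hold 3 each, and *MYB39* and *CASPL1C1* hold 0.

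The shift was also taken within each genotype, from libraries that the other genotype does not share, with the batch terms and the spread estimated over all libraries. In *cif1 cif2* 230 shifts were called (159 higher, or 0.808%, and 71 lower, or 0.361%, together 1.17% of genes tested), and in wild type 152 (116 higher, or 0.59%, and 36 lower, or 0.183%, together 0.773%). Among the higher shifts, 83 genes were called in each, which is 52.2% of those in *cif1 cif2* and 71.6% of those in wild type. Among the lower shifts 28 were called in each, 39.4% of those in *cif1 cif2* and 77.8% of those in wild type, and no gene was called in opposite directions. Of the 159 genes called higher in *cif1 cif2*, 155 had a shift above 0 in wild type, and of the 71 called lower 70 had one below 0. No gene passed the test of the difference between the genotypes in edgeR, 593 (3.02%) had an unadjusted *P*-value under 0.05, DESeq2 called 5 and limma-trend 0. Calls in wild type numbered 90 without batch 1, 198 without batch 2 and 133 without batch 3. With the 3 conflicting libraries left out, an alternative chosen after seeing the data, 153 shifts were called, of which 116 were higher and 37 lower.

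In the receptor mutant no shift was called. In *sgn3*, 0 of 19668 genes passed the adjusted *P*-value in edgeR, 475 (2.42%) had an unadjusted *P*-value under 0.05, and DESeq2 and limma-trend also called 0. The *sgn3* shift had a median of 0.10 over the 147 genes and of 0.01 over the 63 genes, against medians of 1.39 and -1.59 in *cif1 cif2* and of 1.26 and -1.32 in wild type. The *sgn3* libraries are not in the contrast that chose these genes but entered the shared fit, its filter and its spread. A fit of the 24 libraries of *cif1 cif2* and wild type alone called 211 genes, 201 of the 210 among them. The shift in *sgn3* differed from the mean of *cif1 cif2* and wild type for 290 genes (1.47%), 81 of the 147 and 33 of the 63 among them. This test uses the same *cif1 cif2* and wild-type libraries as the shift. The count was 94 without batch 3, 133 without batch 1 or without batch 2, and 176 without the batch block. For *MYB39* the shift was 0.15 in *sgn3*, against -2.27 in *cif1 cif2* and -2.199 in wild type (adjusted *P* of the difference = 1.33e-09). For *LAC13* it was 0.02 in *sgn3*, 2.02 in *cif1 cif2* and 2.35 in wild type (adjusted *P* = 1.07e-07). For *PRX52* it was -1.41 in *sgn3*, 2.505 in *cif1 cif2* and 2.95 in wild type, and the difference did not pass (adjusted *P* = 0.073). The *PRX52* shift within *cif1 cif2* did not pass either (edgeR adjusted *P* = 0.114).

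**Figure D5:**
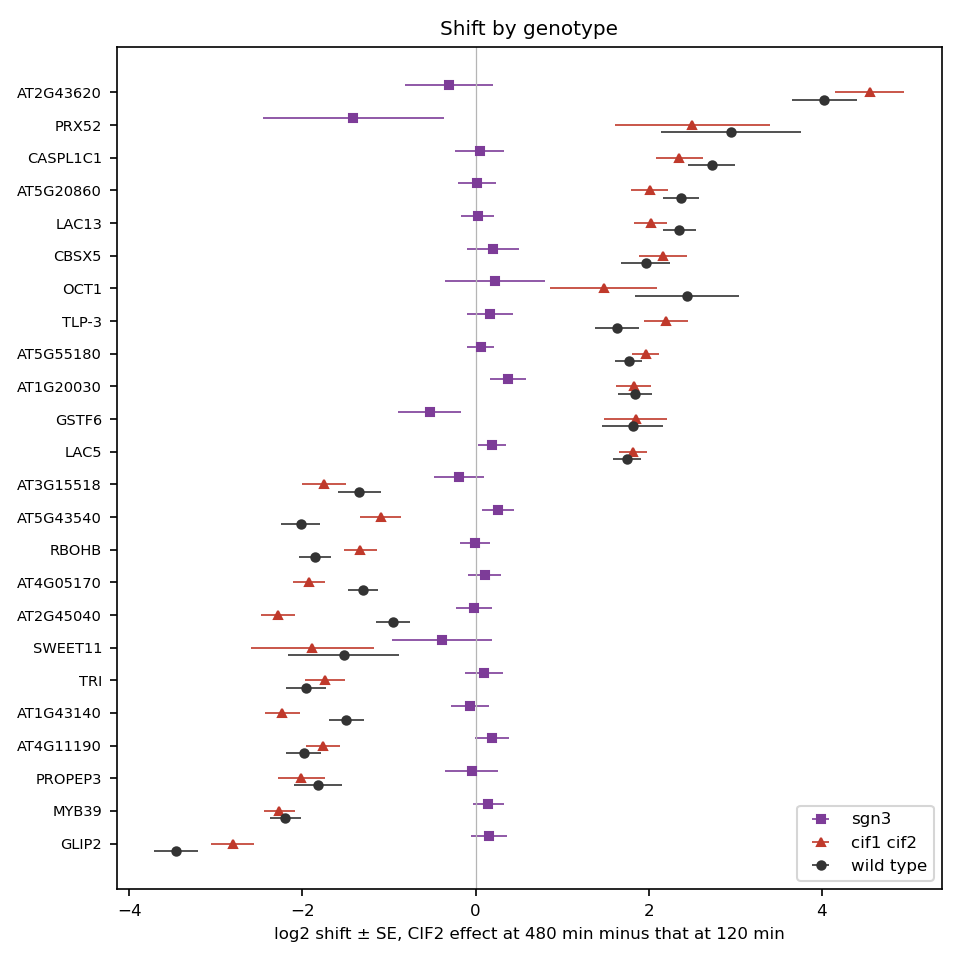
Log2 shift with its standard error (x axis) of the 24 genes with the largest shifts by the naming rule, in *sgn3* (squares), *cif1 cif2* (triangles) and wild type (circles). Squares lie between -0.53 and 0.37 apart from *PRX52* at -1.41, while triangles and circles lie on the same side of 0, for *LAC13* at 2.02 and 2.35.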

How the data were processed

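RNA of whole roots was sequenced in 54 libraries (TruSeq Stranded mRNA). The authors trimmed reads with Cutadapt 1.8, removed ribosomal and low-complexity reads with fastq_screen and reaper, aligned them to TAIR10 with STAR 2.5.3a and counted them with htseq-count 0.9.1. The deposited values are whole-number counts per gene, not normalized, and whether counting used the strand is not given in the sources used here. Unassigned reads (4.72 to 5.15% of each library) were left out.

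Genes that reached 1 CPM in any library (19668 of 34262) were fitted with edgeR 4.0.16 (R 4.3.3), TMM factors and the quasi-likelihood test, over all 54 libraries with their groups and the batch as a block. The shift averages *cif1 cif2* and wild type. Adjusted *P*-values are Benjamini-Hochberg values over all genes, and a call needs at most 0.05 and at least 1 on the log2 scale (the *P*-value alone for differences between genotypes). The same batch number was taken as a shared batch. Deviations of such libraries from their group means had a mean correlation of 0.229 over 84 pairs. The mean of -0.115 over 168 other pairs is no separate evidence, since deviations from a mean of 3 libraries sum to 0. In data simulated for the shift (19344 genes), 45 of 50 genes changed 1.5-fold and 50 of 50 changed by a fold of 2 passed the adjusted *P*-value, of which 1 and 27 were also called. All 50 changed by a fold of 3 and all 50 changed by a fold of 4 were called. Of the unchanged genes, 17 passed the adjusted *P*-value and 0 were called. The changed genes were drawn from those at a mean of at least 5 CPM, so recovery at lower levels was not simulated. No other effect of batch, genotype or time was simulated. Among the genes with a called shift, 95 of the 147 and 35 of the 63 had a mean of at least 5 CPM over the 24 libraries. CPM per library are scaled by the same factors.

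Alternatives were DESeq2 1.42.0, limma-trend 3.58.1, other size factors and filters, no block, batches left out, the 24 libraries alone and wild type alone. Named genes were the 12 largest and 12 smallest called shifts at a mean of at least 5 CPM with 1 sign in all 6 sets of genotype and batch, up to 4 called members in each direction and the key members of each list, *SGN3*, and 3 genes with the smallest *P*-value in the difference of *sgn3*. Others are marked as chosen after their values were seen. Members and lists were chosen with earlier results of these data known. Symbols and promoters are from RefSeq TAIR10.1 (32548 gene IDs matched).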

Additional observations from a re-analysis of the deposited data

Results flagged for a closer look

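The shift in *sgn3* differed from the mean shift of *cif1 cif2* and wild type in 290 genes by the edgeR test of the difference itself (adjusted *P*-value of at most 0.05). Of the 24 genes with the largest called shifts of the naming rule, 21 were among them, and *PRX52*, *OCT1* and *SWEET11* were not. These differences are on the log2 scale, *sgn3* minus the mean of the other genotypes. For genes with a higher shift they were -4.596 for AT2G43620, -2.49 for *CASPL1C1*, -2.36 for *GSTF6*, -2.18 for AT5G20860, -2.17 for *LAC13*, -1.87 for *CBSX5*, -1.81 for AT5G55180, -1.75 for *TLP-3*, -1.59 for *LAC5* and -1.46 for AT1G20030. For genes with a lower shift they were 3.29 for *GLIP2*, 2.38 for *MYB39*, 2.06 for AT4G11190, 1.94 for *TRI*, 1.87 for *PROPEP3*, 1.82 for AT5G43540, 1.795 for AT1G43140, 1.71 for AT4G05170, 1.60 for AT2G45040, 1.59 for *RBOHB* and 1.36 for AT3G15518. These genes were chosen by their shift in *cif1 cif2* and wild type, and the same libraries enter the difference.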

How the results depend on the processing

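The count of 210 shifts was 216 with DESeq2, 217 with limma-trend, 212 with DESeq2 size factors, 227 without the low-count filter, 210 with at least 1 CPM in at least 3 libraries, 211 in the 24 libraries alone and 197 without the replicate block. Of the 210 genes, 208 were shared with DESeq2, 200 with limma-trend and 195 with the fit without the block. With 1 batch left out the count was 179 to 231, with 152, 180 and 172 of the 210 genes still called without batch 1, 2 and 3. Higher shifts were 112 to 182 and lower ones 49 to 67. The CIF2 effect was called for 463 to 511 genes at 480 min and 324 to 367 at 120 min. Shifts in *cif1 cif2* were 159 to 220, and in wild type 90 to 198. No shift was called in *sgn3* and no difference between *cif1 cif2* and wild type in these 3 fits. Shifts in *sgn3* that differed from the other genotypes were 94 to 133, against 290, and 176 without the replicate block or 158 at an adjusted *P*-value of at most 0.01. Without the fold threshold 1656 shifts (1026 higher and 630 lower), 3730 effects at 480 min, 4181 effects at 120 min, 898 shifts in *cif1 cif2* and 511 in wild type passed. Lower shifts were 36 in wild type alone and 37 without the *cif1 cif2* libraries of conflicting label, where fewer libraries enter. DESeq2 called 5 differences between *cif1 cif2* and wild type, where edgeR called 0. The cause of the other differences was not tested. Of 75 named genes with a called shift, 64 passed in wild type alone, 70, 71 and 70 without batch 1, 2 and 3, and 74 without the block, and none changed direction. The 11 that did not pass in wild type alone were *CRK4*, *IGMT4*, *CASPL1D2*, *XTH24*, *EXLA3*, *TIP2;3*, *WRKY53*, *SWEET3*, *SWEET11*, *NRT2.1* and *WRKY30*. Named genes that passed in wild type but not within *cif1 cif2* included *PRX52*, *LAC12*, *OCT1*, *LOV1* and *BXL3* (edgeR adjusted *P* of 0.0632 to 0.234 in *cif1 cif2*). Genes near 1 CPM rest on few reads, so their folds are imprecise.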

Other observations

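A few more genes with called shifts were chosen after their values were seen and are given as values. *BXL3*, a beta-xylosidase gene, had 2.42 to 4.303 CPM (median 3.37) with CIF2 and 0.117 to 0.396 CPM (median 0.202) without at 480 min, and 0.0976 to 0.385 CPM (median 0.129) with CIF2 and 0.0365 to 0.242 CPM (median 0.122) without at 120 min, a shift of 3.61 ± 0.61 (SE, edgeR adjusted *P* = 3.70e-05). *MYB52*, a MYB factor, had effects of 2.09 at 480 min and 0.77 at 120 min. *CKX4*, a cytokinin oxidase gene, had effects of 0.09 at 480 min and 1.55 at 120 min, and its level was higher at 480 than at 120 min with CIF2 (1.47) and without (2.93). The dirigent-like AT3G13650 had effects of 1.51, 1.21 and -0.26 over 30, 120 and 480 min, and *EXLA3*, an expansin-like gene, of 1.95, 2.92 and 1.86. The shift of *EXLA3* did not pass without batch 1, without batch 2 or in wild type alone (adjusted *P* of 0.0534 to 0.1).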
